A study of Mus musculus with 6 samples.

Results

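The 40 genes described here drive or mark the cell division cycle. They were matched by symbol in the deposited gene table, where all 40 of them were found among 55331 listed genes, and all 40 were among the 15460 genes the authors tested. The same symbols carried 165 of the 61715 splicing events in the 5 deposited splicing tables. Polyadenylated RNA of crypt cells from mouse small intestine was sequenced in 6 libraries, 3 labelled WT and 3 labelled PTBP1_KO. All came from C57BL/6 mice aged 60 days. WT animals had the genotype Ptbp1f/f, that is floxed alleles of the splicing regulator Ptbp1 and no Cre, and PTBP1_KO animals had the genotype Ptbp1f/f;Vil-creER+/-, which adds a tamoxifen-inducible Cre under villin control, active in the intestinal epithelium. Tamoxifen (100 mg/kg) was injected on 2 days in the WT animals as well as the PTBP1_KO animals, and crypts were taken 20 h after the last injection. The comparison asks how loss of PTBP1 from the epithelium bears on the regeneration of that tissue, and cycling crypt cells are the source of new epithelium.

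In the crypt base, stem cells divide and feed a zone of rapidly dividing progenitors. In G1, D-type cyclins with CDK4 phosphorylate the RB proteins and release E2F factors, which switch on genes for DNA replication. Origins are licensed when CDC6 and CDT1 load the MCM helicase, and the later mitotic genes are switched on through the MuvB, MYBL2 and FOXM1 complexes before the chromosomes are separated by the spindle.

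No cell cycle gene differed in level between the groups by the authors' test. Of the 40 genes, 0 passed q < 0.05 in Cuffdiff in the authors' deposited table, against 0.537% of all tested genes (0.388% higher and 0.149% lower in PTBP1_KO), and all 40 carried the same q of 0.999805. An unadjusted p below 0.05 was listed for 0 of the 40 genes, against 4.35% of all tested genes. At the background share fewer than 1 of 40 genes would be called, so the count of 0 calls does not set the cell cycle genes apart. The authors' log2 fold changes ran from -0.39 for Tyms to 0.21 for Ccne2, and 25 of the 40 genes lay within 0.1 of zero. Levels are FPKM, fragments scaled to transcript length and to sequencing depth, with 1 value per group and none per library. They therefore carry no spread between replicates, and their depth is unknown.

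The targeted gene was listed at 230.0 FPKM in WT against 122.8 FPKM in PTBP1_KO, and the authors' deposited table gave Ptbp1 a log2 fold change of -0.91 with q = 0.0125. This leaves 53.4% of the WT level over the whole gene, and the deleted exons are not given in the sources used here. Epithelial markers were abundant: Epcam had 1220 FPKM in WT against 1340 FPKM in PTBP1_KO, and Vil1 had 423 FPKM and 454 FPKM. Markers of some other cell types differed between the groups. Over all tested genes, 0.537% were called and 4.35% had an unadjusted p below 0.05. The 9 Paneth cell markers summed to 6587 FPKM in WT against 11218 FPKM in PTBP1_KO, with 3 called by the authors. The 12 immune markers summed to 174 FPKM and 277 FPKM, with 3 called. The 9 tuft cell markers summed to 99.3 FPKM and 64.4 FPKM, with 1 called, and the 10 enteroendocrine markers to 469 FPKM and 545 FPKM, with 2 called. An unadjusted p below 0.05 was listed for 6 Paneth cell, 9 immune, 7 tuft cell and 2 enteroendocrine markers. The 9 tested enterocyte markers summed to 10087 FPKM and 10430 FPKM, and the 8 goblet cell markers to 10048 FPKM and 10374 FPKM. Each of these lists had 0 called and 0 at an unadjusted p below 0.05. Stem cell markers (10 genes) summed to 838 FPKM and 780 FPKM, with 0 called and 1 at an unadjusted p below 0.05. Of the stromal and muscle markers the 7 tested ones summed to 8.44 FPKM and 8.43 FPKM, with 0 called and 4 at an unadjusted p below 0.05. Those 4 were listed lower in PTBP1_KO at low levels: Col1a1 (0.252 and 0.0997 FPKM), Col1a2 (0.334 and 0.153 FPKM), Col3a1 (0.749 and 0.328 FPKM) and Dcn (1.51 and 0.723 FPKM). Vim, the most abundant of the list, had 4.90 FPKM and 6.28 FPKM. No marker of these 8 lists was at 0 in either group. The part of this cell makeup in the cell cycle values was not tested, and in bulk RNA fewer cells of a type cannot be told apart from less RNA per cell.

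Replication licensing genes lay close to equal levels. The 9 genes had log2 ratios from -0.06 to 0.06, with a median of -0.02, where a log2 ratio is log2((PTBP1_KO + 1)/(WT + 1)) of the FPKM. Cdc6, which loads the helicase onto origins, had 6.25 FPKM in WT against 6.35 FPKM in PTBP1_KO. Its partner Cdt1 had 19.8 FPKM in WT against 19.4 FPKM in PTBP1_KO. Gins2, a subunit of the active helicase, had 7.79 FPKM and 7.70 FPKM. Values of Cdt1 and Gins2 were estimated by the authors within a single locus that held 210 listed genes, and 2758 exonic bases of Gins2 are shared with Gse1 on the opposite strand. The helicase itself is a ring of 6 MCM proteins. Mcm2 had 23.1 FPKM in WT against 23.5 FPKM in PTBP1_KO, and Mcm3 had 59.8 FPKM and 57.4 FPKM. Mcm4 had 17.2 FPKM and 16.9 FPKM, and Mcm5 had 34.3 FPKM and 35.8 FPKM. Mcm6 had 39.9 FPKM and 38.8 FPKM, and Mcm7 had 44.8 FPKM and 45.9 FPKM. So 3 of the 6 subunits were listed higher and 3 lower in PTBP1_KO, each by less than 0.1 on the log2 scale.

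Among genes of DNA synthesis, Tyms stood farthest from equal levels. Tyms encodes thymidylate synthase, which makes the thymidine nucleotide for DNA, and had 45.3 FPKM in WT against 34.5 FPKM in PTBP1_KO, or 76.1% of the WT level. Its log2 fold change was -0.39 with p = 0.0789 in the authors' deposited table, so the difference did not pass. The gene (ENSMUSG00000025747.12) lies on chromosome 5 from 30058202 to 30073617 on the minus strand of mm10, and its pseudogene Tyms-ps was listed at 0 in both groups. Pcna, the sliding clamp of the polymerases, had 88.5 FPKM in WT against 94.0 FPKM in PTBP1_KO. The large subunit of ribonucleotide reductase, Rrm1, had 62.3 FPKM and 60.2 FPKM. The small subunit, Rrm2, had 28.1 FPKM and 29.6 FPKM. Thus the enzymes that supply the other nucleotides lay within 0.1 of equal levels on the log2 scale.

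Cyclins did not share a direction, with 5 of the 8 genes listed higher and 3 lower in PTBP1_KO. Ccnd1 had 70.5 FPKM in WT against 71.3 FPKM in PTBP1_KO, whereas Ccnd2, a D-type cyclin like it, had 63.6 FPKM and 50.9 FPKM. The authors' deposited table gave Ccnd2 a log2 fold change of -0.32 with p = 0.0880, which did not pass. The E-type cyclins drive entry into S phase. Ccne1 had 7.15 FPKM in WT against 6.05 FPKM in PTBP1_KO, and Ccne2 had 6.06 FPKM and 6.99 FPKM, the lowest WT level of all 40 genes. Neither passed, with p = 0.278 for Ccne1 and 0.537 for Ccne2 in the authors' deposited table. Ccna2, which acts in S phase and G2, had 63.8 FPKM in WT against 66.6 FPKM in PTBP1_KO. The mitotic cyclins were level, with 21.4 FPKM and 21.6 FPKM for Ccnb1 and 41.3 FPKM and 42.0 FPKM for Ccnb2. Ccnf, a cyclin that marks proteins for degradation rather than activating a kinase, had 11.6 FPKM and 10.7 FPKM. The kinase partner of the D-type cyclins, Cdk4, had the highest level of the 40 genes, 177 FPKM in WT against 167 FPKM in PTBP1_KO. Cdk1, the kinase of mitotic entry, had 84.6 FPKM and 85.9 FPKM, and Cdk2, the partner of the E-type cyclins, had 27.4 FPKM and 23.9 FPKM. Of these genes 6 share exonic bases with a gene on the opposite strand: Ccnd1 1100 bases, Cdk4 641, Ccne2 609, Ccna2 510, Ccnd2 372 and Cdk2 34. The transcription factors E2f1 and Foxm1 had 7.92 and 20.6 FPKM in WT and 7.28 and 18.3 FPKM in PTBP1_KO.

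**Figure D1:**
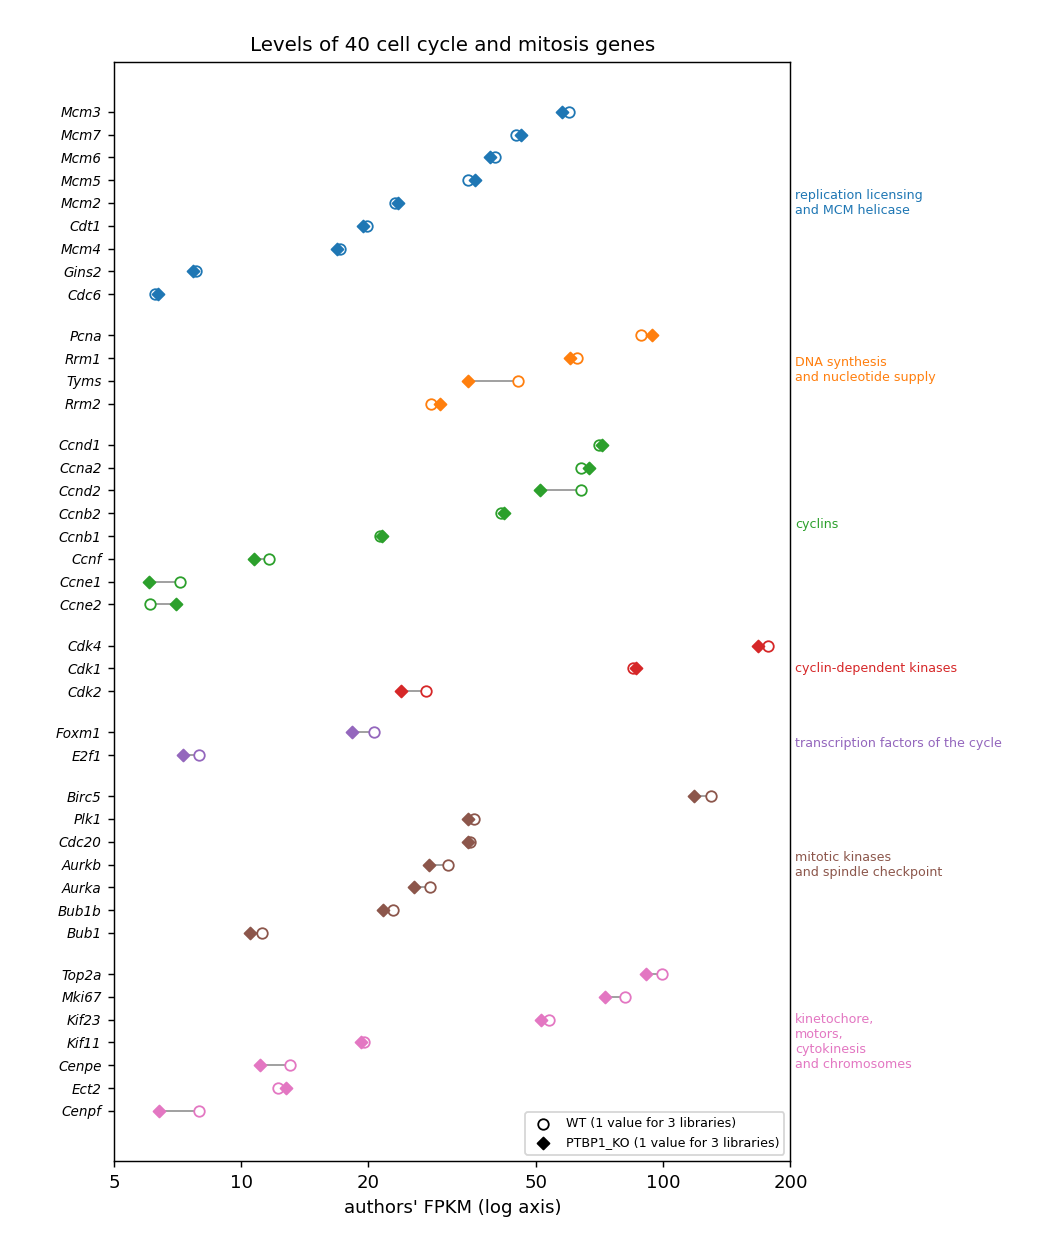
FPKM of each of the 40 genes (log axis) in WT (open circles) and PTBP1_KO (filled diamonds), grouped by role, with 1 value per group. Pairs of symbols nearly coincide for the MCM genes, and the widest gap is that of Tyms, from 45.3 to 34.5 FPKM.

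Most genes grouped here as mitotic were listed slightly lower in PTBP1_KO, and none passed the test. All 7 genes of the mitotic kinase and checkpoint group were lower, with log2 ratios from -0.15 to -0.02. Among all tested genes 45.3% were listed lower. Cdk1, Ccnb1 and Ccnb2 also act in mitosis but were grouped above with the kinases and cyclins. They were listed higher, with log2 fold changes of 0.022, 0.015 and 0.025 in the authors' deposited table. Aurka, a kinase of the spindle poles, had 28.0 FPKM in WT against 25.6 FPKM in PTBP1_KO. Aurkb, the kinase of the chromosomal passenger complex, had 30.8 FPKM and 27.8 FPKM, and Birc5, a subunit of the same complex, had 130 FPKM and 118 FPKM. Plk1, the Polo kinase, had 35.5 FPKM and 34.5 FPKM. The spindle checkpoint genes Bub1 and Bub1b had 11.2 FPKM and 22.9 FPKM in WT and 10.5 FPKM and 21.7 FPKM in PTBP1_KO. Cdc20, the activator of the anaphase-promoting complex, had 34.9 FPKM and 34.5 FPKM.

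The remaining 7 genes act on chromosomes, at kinetochores or in cytokinesis, and 6 of them were listed lower, with a median log2 ratio of -0.12. Cenpf, a large kinetochore protein, had 7.93 FPKM in WT against 6.37 FPKM in PTBP1_KO. With p = 0.0552 and a log2 fold change of -0.32 in the authors' deposited table, it had the smallest p of the 40 genes and did not pass. The kinetochore motor Cenpe had 13.04 FPKM and 11.1 FPKM. Kif11, the motor that pushes spindle poles apart, had 19.5 FPKM and 19.2 FPKM, and Kif23, a motor of the spindle midzone, had 53.5 FPKM and 51.3 FPKM. Ect2, the exchange factor that starts the cleavage furrow, was the exception with 12.2 FPKM in WT against 12.7 FPKM in PTBP1_KO. Top2a, which untangles DNA, had 99.4 FPKM and 91.1 FPKM, and the proliferation marker Mki67 had 80.9 FPKM and 72.8 FPKM.

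Over all 40 genes, 27 were listed lower and 13 higher in PTBP1_KO (67.5% lower), against 45.3% lower among all tested genes. The median log2 ratio was -0.04, against 0.02 over all tested genes. Genes that share 1 pair of group values are not independent, and no test was made of this direction. The size of difference that could be called was read from the 7949 tested genes whose WT level lay between 6.06 and 177 FPKM, the range of the cell cycle genes. The authors called 28 of these (0.352%), and the smallest absolute log2 fold change among them was 0.57, a 1.49-fold change, listed for Reg1. In the same range 0 called genes were as small as the 0.39 of Tyms, and 61 genes of at most that size had an unadjusted p below 0.05. Differences of the sizes listed for the cell cycle genes were thus below those called at these levels.

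**Figure D2:**
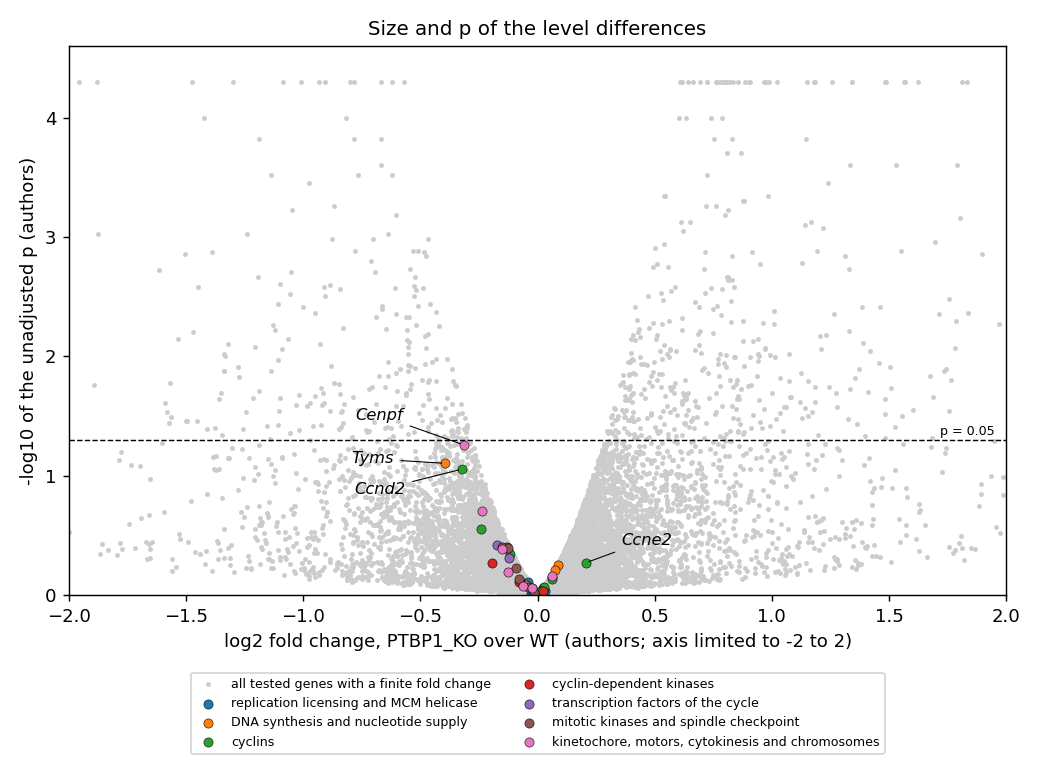
The authors' log2 fold change of PTBP1_KO over WT (x axis, limited to -2 to 2) and -log10 of the unadjusted p (y axis) for all tested genes with a finite fold change (grey) and the 40 genes (coloured by role). All 40 lie below the dashed line at 0.05, and Cenpf is nearest to it.

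Of 229 further genes in 10 lists of the same pathway, 224 were tested, and 149 of them were listed lower and 75 higher in PTBP1_KO. The authors' deposited table called 2 of the 224 at q < 0.05, against 0.537% of all tested genes, and 8 had an unadjusted p below 0.05, against 4.35%. Over the 224 genes together both counts lie near the background. Both called genes are p53 targets. Ccng1, a cyclin induced by p53, rose from 20.8 to 35.6 FPKM with a log2 fold change of 0.78 and q = 0.0125 in the authors' deposited table. Trp53inp1, which promotes p53 activity, rose from 2.00 to 3.37 FPKM with a log2 fold change of 0.75 and q = 0.0305 in the authors' deposited table. The p53 targets that act on the cycle (13 tested) had a median log2 ratio of 0.20, with 10 listed higher and 3 lower. Of these 13 genes 2 were called and 5 had an unadjusted p below 0.05, against 0.537% and 4.35% of all tested genes. Besides the called genes these were Plk2 (log2 fold change 0.67, p = 0.0035), Zmat3 (0.51, p = 0.0066) and Sesn2 (0.45, p = 0.019) in the authors' deposited table. The list was chosen with earlier results of these data known, and no test of it was made. Cdkn1a, the p53-induced inhibitor of cyclin-dependent kinases, had 53.4 FPKM in WT against 64.99 FPKM in PTBP1_KO. The authors' deposited table listed p = 0.0548 for it.

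The other 9 lists held no called gene. The kinetochore and checkpoint list (39 tested) had 33 genes lower and 6 higher, with a median of -0.08. The kinetochore gene Ndc80 had 13.8 FPKM in WT against 11.8 FPKM in PTBP1_KO and the lowest p of the list, 0.216 in the authors' deposited table. Entry into mitosis (17 tested) had 13 lower and 4 higher with a median of -0.10, and Chek2, a DNA damage checkpoint kinase, had 14.1 FPKM and 10.8 FPKM with p = 0.0224 and q = 0.780 in the authors' deposited table. Spindle motors and cytokinesis genes (29 tested) had 22 lower and 7 higher with a median of -0.07, and Nusap1, which bundles spindle microtubules, had 24.4 FPKM and 19.7 FPKM with p = 0.0486 and q = 0.999805 in the authors' deposited table. Origin and fork genes (43 tested) had 29 lower and 14 higher with a median of -0.07, and Pold1, the catalytic subunit of polymerase delta, had 34.5 FPKM and 26.2 FPKM with p = 0.126 in the authors' deposited table. Cohesin and condensin genes (21 tested) had a median of -0.03 and the anaphase-promoting complex (21 tested) a median of -0.06. Nucleotide supply (14 tested) had 7 lower and 7 higher.

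Outside the 40 genes, the listed regulators of G1 did not share the lower listing of the mitotic lists. Among the 40 genes themselves, which these lists leave out, Ccnd2, Ccne1, Cdk2, Cdk4 and E2f1 were listed lower and Ccnd1 and Ccne2 higher. The G1/S control list (23 tested) had 12 higher and 11 lower with a median of 0.02, and the DREAM and MuvB list (12 tested), which shares members with it, 7 higher and 5 lower with a median of 0.02. In both, Rbl1, which encodes a relative of RB, had the lowest p, 0.0106 with q = 0.542 in the authors' deposited table. Rbl1 had 12.5 FPKM in WT against 9.23 FPKM in PTBP1_KO. Whether any list differed from another was not tested.

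**Figure D3:**
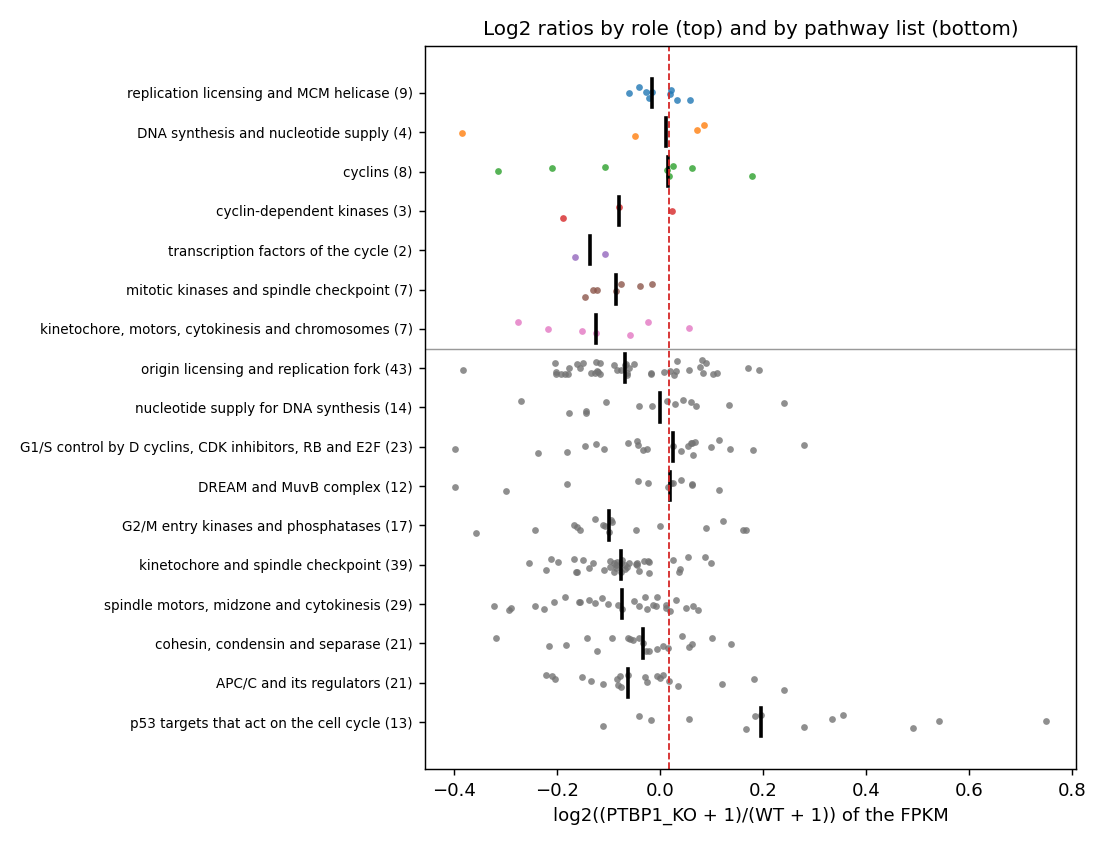
Log2 ratio of PTBP1_KO over WT (1 FPKM added to each value) for each gene, by role of the 40 genes (coloured, top) and by pathway list (grey, bottom), with the number tested in brackets. Black bars are medians, the dashed red line is the median of all tested genes at 0.02, and the p53 target list has the highest median at 0.20.

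Cell cycle promoters are known for a few short elements: the cell cycle homology region (CHR) of mitotic genes, E2F sites of replication genes and CCAAT boxes bound by NF-Y. RefSeq windows on GRCm38.p6, from 250 bases before to 50 after the start, were found for 32 of the 40 genes. In 22 of these 32 genes the window continued into an annotated transcript of the gene, read in the same direction. The remaining genes did not pass this check and are kept in the motif counts. Windows of Cdk1, Plk1 and Mcm6 are shown in part, as examples that hold searched letters. Whether these letters act in the crypt was not tested. The following stretches are the 120 bases before the start, with the searched letters in capitals on either strand. These are TTTGAA or TTTAAA for the CHR and, for E2F, TTTCGCGC or its variant TTTGGCGC. The box of NF-Y is CCAAT, which reads ATTGG on the other strand.
Cdk1, chr10:69352913-69353032, minus strand: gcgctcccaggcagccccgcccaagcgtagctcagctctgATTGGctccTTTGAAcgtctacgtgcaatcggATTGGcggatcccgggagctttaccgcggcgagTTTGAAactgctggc
Plk1, chr7:122159315-122159434, plus strand: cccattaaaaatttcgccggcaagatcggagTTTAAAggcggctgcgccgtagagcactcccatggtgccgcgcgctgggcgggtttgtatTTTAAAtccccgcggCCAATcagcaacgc
Mcm6, chr1:128359706-128359825, minus strand: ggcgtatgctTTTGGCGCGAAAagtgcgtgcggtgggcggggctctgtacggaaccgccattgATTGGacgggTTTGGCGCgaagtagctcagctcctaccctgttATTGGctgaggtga

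The printed stretches of Cdk1 and Plk1 carry CHR letters and that of Mcm6 carries E2F letters. No other gene with a window holds E2F letters in these 120 bases. Over the whole window E2F letters were found in Mcm3, Mcm5, Mcm6, Mcm7, Cdt1 and the mitotic Cdk1. CHR letters were found in mitotic genes but also in Mcm2, Mcm5, Rrm2 and Ccne1, so the letters did not strictly follow the role. Over the whole window, TTTGAA or TTTAAA was found in 20 of the 32 genes (62.5%, exact 95% interval 43.7% to 78.9%) and in 30.6% of all 27025 genes with a window. TTTCGCGC or TTTGGCGC was found in 6 of 32 (18.8%, exact 95% interval 7.21% to 36.4%) and in 0.929% of all. CCAAT was found in 25 of 32 (78.1%, exact 95% interval 60.0% to 90.7%) and in 41.1% of all. The 6 genes with E2F letters had log2 ratios from -0.06 to 0.06. The 20 genes with CHR letters had ratios from -0.28 to 0.07 with a median of -0.05, and the 12 without them had a median of -0.05 too. A match describes the letters only.

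Few splicing events of the cell cycle genes differed between the authors' sets of libraries, at a share near that of all events. The splicing tables compare a first with a second set of 3 libraries, and neither set carries a genotype in the headers, so no direction by genotype is given. Except for mutually exclusive exons, an inclusion level is the estimated share of transcripts that carry the alternative region. For a mutually exclusive pair it weighs 1 exon against its partner only. The Cdk1 exon at 69346075 to 69346231 on chromosome 10 thus had 4.57% in such a pair but 99.9% as a skipped exon. The authors' difference is the mean level of the first set minus that of the second. An event was called at the authors' FDR below 0.05 with an absolute difference of at least 0.1 and a mean of at least 20 reads over the 6 libraries. Of the 165 listed events 161 had enough reads, in 36 of the 40 genes, with a median of 609.5 reads per library against 262 over all events. Ccnd2, Cdc20, E2f1 and Pcna had no listed event.

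By this rule 1 of the 161 events was called, against 1.56% of all events with enough reads. It was 1 of 9 alternative 3' splice sites, against 1.1%, and 0 of 122 skipped exons (background 1.68%), 0 of 3 alternative 5' splice sites (1.57%), 0 of 19 mutually exclusive exon pairs (1.02%) and 0 of 8 retained introns (2.06%). By gene, 1 of 36 had a called event, against 6.61% of all genes with a covered event. The authors' FDR alone was below 0.05 for 6 of the 161 events, against 3.76%, and they lay in Cdc6, Cdt1 and Tyms, 3 of 36 genes against 14.4% of all genes with a covered event. An unadjusted p below 0.05 was listed for 14 of the 161, against 10.3% of all events with enough reads. These event counts lie near the background and do not set the cell cycle genes apart. Of the 122 skipped exon events, 103 (84.4%) were included at 95% or more over all libraries, against 77.6% of all skipped exon events. An exon listed in more than 1 event counts each time, as several exons of Ccna2 do. The exons included at 95% or more are close to constitutive in the crypt.

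The called event is a tandem 3' splice site of Cdc6 (chromosome 11, 98911388 to 98911563, plus strand, mm10), where the coding exon 5 starts 3 bases earlier or later. The spliced junctions are shown because the alternative bases, in capitals, are the whole of the difference. They were read from the GENCODE M21 transcripts.
Cdc6 with the longer exon: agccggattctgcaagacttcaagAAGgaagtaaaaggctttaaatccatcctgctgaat
Cdc6 with the shorter exon: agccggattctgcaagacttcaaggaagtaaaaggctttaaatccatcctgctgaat

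The 3 bases keep the reading frame. In the authors' deposited table the difference was 0.102 with p = 0.000120 and FDR = 0.00831, just past the limit of 0.1. The longer exon was included at 85.7% over all reads. Among the 6 libraries the level was 77.8% at the lowest, 81.2% at the median and 94.1% at the highest. Reads per library ran from 78 to 154. The other tandem sites of 3 bases among these genes did not pass in the authors' deposited table: Ccne2, with the longer exon at 84.1%, had p = 0.399, Foxm1 at 13.2% had p = 0.610 and Ect2 at 95.3% had p = 0.367. A 235 base exon of Cdc6 (chromosome 11, 98917910 to 98918144) was included at 8.18% and had a difference of 0.050 with FDR = 0.139 in the authors' deposited table, which did not pass. This exon and those tandem sites were singled out after their values were seen.

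Tyms had 3 events with an FDR below 0.05 and differences below 0.1. At the 5' splice site after exon 2 (chromosome 5, 30069834 to 30071707, minus strand) the longer form extends the exon by 1800 bases into the intron. That form was included at 2.92% over all reads, from 1.23% in the lowest library through 3.09% at the median to 5.08% in the highest, with a mean of 814 reads. In the authors' deposited table the listed difference was 0.026 with FDR = 0. Read in frame from the coding sequence, the extension meets a stop at codon 112 of a normal 307. The 3' splice site of exon 6 (chromosome 5, 30061968 to 30062049) has 2 forms that differ by 10 bases, shown in capitals.
Tyms with the longer exon: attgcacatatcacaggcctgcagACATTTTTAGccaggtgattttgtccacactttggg
Tyms with the shorter exon: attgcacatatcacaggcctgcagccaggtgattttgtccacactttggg

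The 10 bases shift the frame, and the next stop is at codon 244. The longer form was included at 9.16% over all reads, at 5.59% in the lowest library, 10.5% at the median and 13.8% in the highest, with a mean of 505 reads. The difference was 0.058 with FDR = 0.000510 in the authors' deposited table. The third Tyms event is a 73 base stretch (chromosome 5, 30068466 to 30068538, minus strand), listed as a skipped exon. It is the downstream end of the 175 base coding exon 3, so reads within it also come from the longer exon.
Tyms 73 base stretch: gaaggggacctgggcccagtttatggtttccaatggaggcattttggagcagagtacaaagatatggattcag

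Its inclusion was 96.9% over all reads, with 92.7% in the lowest library, 98.8% at the median and 100.0% in the highest. In the authors' deposited table the listed difference was 0.050 with FDR = 2.48e-05, and the mean was 276 reads. All 3 differences of Tyms had the same sign, that of higher inclusion in the first set. A retained intron of Tyms within the same 1800 bases (chromosome 5, 30069956 to 30071633) had the largest absolute difference of the 161 events, 0.132, with p = 0.0829 and FDR = 0.358 in the authors' deposited table, and did not pass. Its level ran from 49.4% to 95.8% over the 6 libraries.

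Cdt1 had 2 retained introns with an FDR below 0.05 and differences below 0.1, both negative, that is lower in the first set. They are short introns and are shown whole, with the first and last 2 bases in capitals.
Cdt1 intron of 78 bases, chr8:122569246-122569323, plus strand, after exon 2: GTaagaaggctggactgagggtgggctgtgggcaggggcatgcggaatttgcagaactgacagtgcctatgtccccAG
Cdt1 intron of 92 bases, chr8:122570102-122570193, plus strand, after exon 4: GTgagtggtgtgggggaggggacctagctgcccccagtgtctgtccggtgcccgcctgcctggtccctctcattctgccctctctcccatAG

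PTBP1 binds pyrimidine-rich RNA. The 92 base intron is 59.8% pyrimidine on the transcript strand and holds CTCTCT in 1 place, near its 3' splice site, and TCTT in 0. The 78 base intron is 38.5% pyrimidine and holds neither. The 1800 base Tyms extension is 49.3% pyrimidine and holds TCTT in 11 places and CTCTCT in 2. The 73 base Tyms stretch (39.7% pyrimidine) and a 144 base exon of Cdk2 (47.2%) hold neither. Whether these counts differ from those of other introns, and whether PTBP1 binds these sequences, was not tested. The 78 base intron was retained at 6.68% over all reads, from 2.97% through a median of 4.42% to 15.1% over the libraries, with 65 to 118 reads each. In the authors' deposited table the listed difference was -0.063 with FDR = 0.00817. The 92 base intron was retained at 18.6%, from 11.2% through a median of 18.1% to 27.4%, with 87 to 227 reads. Its difference was -0.087 with FDR = 0.0310 in the authors' deposited table. Read in frame, the 78 base intron brings a stop at codon 131 and the 92 base intron at codon 243, of a normal 557.

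**Figure D4:**
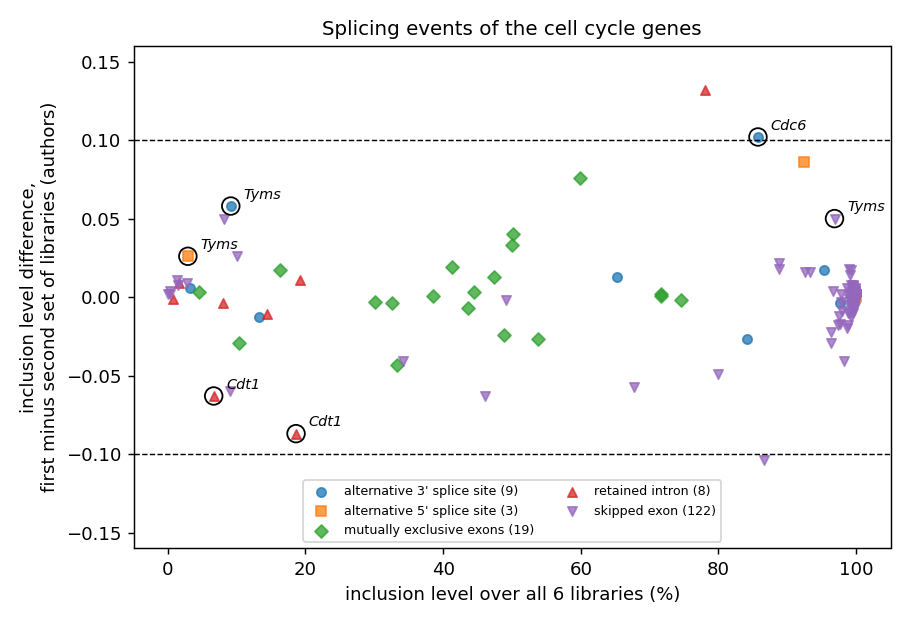
Inclusion level over all 6 libraries (x axis, %) and the authors' inclusion level difference (y axis, first minus second set) of the 161 events, with 1 symbol per event type. Circled events have an FDR below 0.05, dashed lines mark 0.1 in either direction, and Cdc6 at 0.102 is the only circled event outside them.

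Some cell cycle genes used alternative exons widely without a difference between the sets that passed, and these were singled out after their values were seen. Cdk2 has a 144 base coding exon that keeps the frame (chromosome 10, 128699976 to 128700119, minus strand) and gives the longer kinase isoform.
Cdk2 144 base exon: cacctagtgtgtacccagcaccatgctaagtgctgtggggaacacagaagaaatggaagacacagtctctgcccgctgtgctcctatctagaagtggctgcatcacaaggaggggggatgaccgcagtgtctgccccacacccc

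It was included at 34.1% over all reads, from 26.8% to 41.5% over the libraries, with a difference of -0.041 and p = 0.217 in the authors' deposited table. A 42 base exon of Kif23 was included at 46.1%, from 37.8% to 55.2%, with a difference of -0.063 and p = 0.0935 in the authors' deposited table. A 126 base exon of Mki67 was included at 67.7%, from 62.1% to 73.4%, with a difference of -0.057 and p = 0.225 in the authors' deposited table. A 46 base exon of Ect2, with a mean of only 33.3 reads, had a difference of -0.104 with FDR = 0.577 in the authors' deposited table. Cenpf, which had the smallest p by level, had a 5' splice site that adds 51 bases at 92.4% inclusion, with a difference of 0.086 and FDR = 0.0897 in the authors' deposited table. Apart from Cdc6, Cdt1 and Tyms, 33 genes had a covered event, the genes named in this paragraph among them. For each of these 33, the event with the smallest p had an FDR above 0.05.

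**Figure D5:**
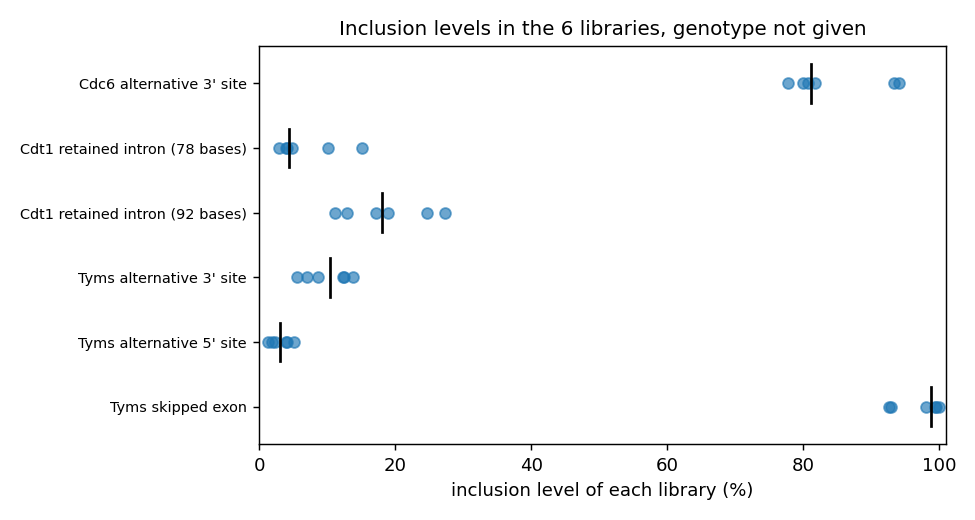
Inclusion level (x axis, %) of the 6 events with an FDR below 0.05, with 1 point per library and a black bar at the median. Genotypes of the libraries are not given by the headers, and the Cdc6 levels run from 77.8% to 94.1%.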

How the data were processed

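The submitters' processing notes name Trimmomatic 0.38, STAR 2.6.1d, Cufflinks, Cuffdiff and the build mm10. The authors deposited 1 FPKM value per group, a log2 fold change with PTBP1_KO above WT positive, and a p-value and q-value per gene, per the file headers. The deposited splicing tables have the MATS layout and hold reads, a p-value, an FDR and an inclusion level difference, per the file headers. No column could be tied to a library of a named group, so no test was made, and 10 columns of inclusion levels were not used. Inclusion levels were computed from reads divided by effective lengths. The labels do not say that the libraries of a group came from separate mice, so the authors' p-values may measure technical spread only.

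Genes were called at q < 0.05, and events as given in the report. The members and lists were chosen with earlier results of these data known. The text names all 40 genes. Of each list it names the called genes and some of the 2 genes of at least 1 FPKM with the smallest p. Of the p53 list it also names the genes with an unadjusted p below 0.05. It names each event called or with the smallest p of its gene at an FDR below 0.05. Intron flanks of exons were not analysed here, since no genome sequence was used. Intervals are Clopper-Pearson. Exons and transcripts are from GENCODE M21. Python 3.11.15, pandas 2.3.3 and scipy 1.17.1 were used, and the functions were tested on simulated data. Alternatives were thresholds, pseudocounts, centring and read minimums.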

Additional observations from a re-analysis of the deposited data

How the results depend on the processing

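No paired analysis was possible because the gene table has 1 value per group and the splicing columns carry no replicate number or genotype. Leaving out a library was not run: the gene table has no library values, and the splicing libraries are tied to no labelled group. The Cdc6 call, at 0.102 against a limit of 0.1, was therefore not examined without any library. The count of 0 genes called by level was also 0 at an unadjusted p below 0.05. The stricter settings tried (q < 0.01, a minimum fold and an FPKM minimum) can only keep a count of 0 and say nothing about stability. Of the 161 events, 5 were called at a difference of at least 0.05 (2 each in Tyms and Cdt1, 1 in Cdc6), 6 with no minimum difference and 0 at a difference of at least 0.2. Read minimums of 10 and 50, 20 reads in every library and merged events each left 1. List medians moved by at most 0.02 on the log2 scale over pseudocounts, centring and an FPKM minimum, and 0 of 44 changed sign. Of the 40 genes, Ccnb1 alone changed sign, from 0.01 to -0.0026 after centring. The 150 bases around the start lie inside the whole window, so motif shares there cannot be higher and say little about stability. They were 56.25% for the CHR, 12.5% for E2F and 65.6% for CCAAT. Over all genes with a window they were 14.7%, 0.507% and 26.3%. Of the 40 genes, 13 share exonic bases with another gene, 10 of them on the opposite strand, and whether the counting used strand is not given in the sources used here.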

Other observations

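The inclusion levels of the 6 libraries are given here for events with an FDR below 0.05, sorted by size and without genotype. For the Cdc6 tandem site they were 77.8%, 80.0%, 80.7%, 81.8%, 93.4% and 94.1%, so the widest gap separated 4 libraries from 2. For the 78 base Cdt1 intron they were 2.97%, 3.93%, 4.08%, 4.75%, 10.04% and 15.1%, again 4 below and 2 above the widest gap. For the 92 base Cdt1 intron they were 11.2%, 12.9%, 17.2%, 18.99%, 24.7% and 27.4%, again with 4 and 2 about the widest gap. The Tyms 10 base site had 5.59%, 6.95%, 8.63%, 12.3%, 12.5% and 13.8%, and the 1800 base Tyms extension 1.23%, 1.81%, 2.29%, 3.89%, 4.05% and 5.08%, each with 3 libraries on either side of the widest gap. The 73 base Tyms stretch had 92.7%, 93.0%, 98.2%, 99.4%, 99.5% and 100.0%, with 2 below and 4 above the widest gap. Whether the same libraries are high in each event was not examined.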
